A study of Arabidopsis thaliana with 14 samples.

Results

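The 4 genes described here are HUA2 (AT5G23150) and the HUA2-like genes AT5G08230, AT2G48160 and AT3G63070 of Arabidopsis thaliana, called HULK1, HULK2 and HULK3 below. They were chosen by gene identifier and not by a measured value, but with earlier results of these data known. They are 4 of the 32548 genes in each of the 2 deposited tables. RNA had been extracted from 1 g of seedlings aged 11 days and sequenced as single reads of 50 nt. The plants were raised on MS plates, where a day had 16 h of light (23 °C) followed by 8 h of dark (21 °C). The first table held seedlings homozygous for fve, seedlings homozygous for both suvh2 and suvh9 (suvh2/9), and wild-type Col-0 (replicates 1 and 2). The second held the quadruple mutant pdp1/2/3;rrm1, the triple mutant pdp1/2/3, the single mutant rrm1, and Col-0 again, as replicates 3 and 4. With 2 libraries in every group, the 7 groups make up 14 libraries. The labels name no allele beyond these genotypes and are silent on whether replicates were grown separately, so p-values measure only the spread between these libraries, which may be technical. In whole seedlings, fewer cells of a type and less RNA per cell cannot be told apart.

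HUA2 encodes a nuclear plant protein with a PWWP domain, a fold that in other proteins binds methylated histones, and with a domain related to those that bind the C-terminal tail of RNA polymerase II. It was found as an enhancer of weak agamous alleles, and it promotes the accumulation of transcripts of FLC, the central repressor of flowering, and of the related MADS-box repressors FLM and MAF2. The HULK genes encode its closest relatives and, per the RefSeq notes on each gene, act redundantly with HUA2 on a subset of essential genes. FVE, mutated in the first table, belongs to the autonomous pathway that represses FLC, while SUVH2 and SUVH9 act in RNA-directed DNA methylation. In the RefSeq annotation of TAIR10.1, 4 of the 4 genes carry the product name of the Tudor/PWWP/MBT superfamily or domain.

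The genes lie apart in the genome. HUA2 occupies chr5:7785743-7792991 on the plus strand and HULK1 lies on the minus strand of the same chromosome at chr5:2641394-2650125. HULK2 is at chr2:19689324-19696821 on the minus strand and HULK3 at chr3:23302365-23309658 on the plus strand. In the transcript with the longest coding sequence, HUA2, HULK1 and HULK3 have 11 coding exons each and HULK2 has 10. Exons 2, 5 and 6 are of the same length in all 4 genes, at 77, 109 and 113 bases, so they can be set side by side without gaps. Exon 2 is printed in full, 5′ to 3′ on the coding strand, to show how near the copies are that 50-nt reads had to separate; the sequences are RefSeq's from TAIR10.1, and capitals mark the bases shared by all 4 genes at that position.
HUA2, chr5:7786692-7786768, plus: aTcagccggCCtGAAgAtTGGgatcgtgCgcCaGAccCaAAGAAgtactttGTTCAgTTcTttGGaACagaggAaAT
HULK1, chr5:2649236-2649312, minus: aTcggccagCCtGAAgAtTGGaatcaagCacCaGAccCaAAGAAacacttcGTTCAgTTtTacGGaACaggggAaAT
HULK2, chr2:19695988-19696064, minus: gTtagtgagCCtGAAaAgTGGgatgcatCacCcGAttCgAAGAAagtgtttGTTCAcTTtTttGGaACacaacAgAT
HULK3, chr3:23303256-23303332, plus: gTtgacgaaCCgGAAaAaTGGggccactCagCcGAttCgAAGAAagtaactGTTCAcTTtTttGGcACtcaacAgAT

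Of the 77 bases of exon 2, 35 (45.5%) are shared by all 4. The genes form a pair of pairs. HUA2 and HULK1 are identical at 83.1% of exon 2, and HULK2 and HULK3 at 77.9%, whereas HUA2 matches HULK2 at 66.2% and HULK3 at 54.5%. Exon 5 splits the same way, at 81.7% between HUA2 and HULK1 and 89% between HULK2 and HULK3, against 58.7% to 60.6% for the other pairs of genes. In exon 6 the values were 77% and 85%, against 54.9% to 56.6%.

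The copies were still far enough apart for 50-nt reads. The longest run of identical bases between transcripts was 39 for HUA2 and HULK1 and 36 for HULK2 and HULK3, and 15 to 17 for the other pairs. No pair shared a word of 50 bases, and each exonic word of that length (5060 in HUA2, 4635 in HULK1, 4420 in HULK2 and 3890 in HULK3) was found once in the genome. These searches asked for exact matches and do not cover reads with sequencing errors. HUA2 overlaps a non-coding gene on its own strand, AT5G23155, by 260 bases, and that gene reached 1.1 CPM. HULK1 overlaps MIR834 (249 bases, the same strand, at most 0.265 CPM) and, by 254 bases, the antisense gene AT5G01535, which is listed at 0 in every library. CPM here means adjusted counts per 1000000, the deposited value over the mean library total of its table times 1000000. Whether the libraries kept strand is not given in the sources used here, so reads of HULK1 and its antisense partner cannot be told apart.

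**Figure D1:**
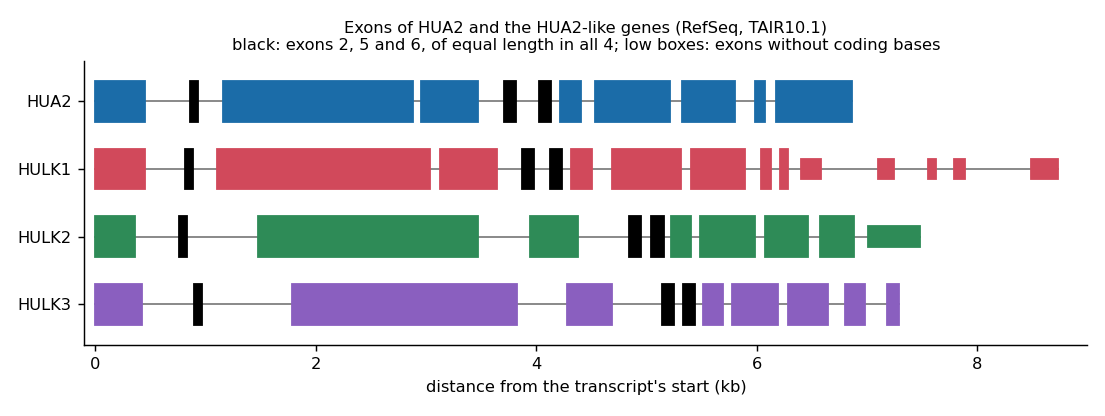
Exon maps of HUA2, HULK1, HULK2 and HULK3, 1 RefSeq transcript each, drawn to scale from the start of the transcript (distance in kb). Boxes are exons and lines introns, low boxes hold no coding bases, and black boxes are exons 2, 5 and 6, whose lengths of 77, 109 and 113 bases are the same in the 4 genes.

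Libraries held 21259805 to 21722950 adjusted counts (first table) or 18609045 to 19534578 (second table), at which 1 count is worth 0.0465 and 0.0520 CPM. Replicates correlated at 0.992 to 0.994 over all genes on the log2 scale, and differed by a chi-square of 2.59 to 6.88 per gene, where counting error alone gives 1. In rrm1 replicate 1 and pdp1/2/3;rrm1 replicate 1, 72.8% and 90.0% of values between 0.5 and 10 lay within 0.2 of a whole number, against at least 99.8% in the other 12 libraries, so values of both groups are also given without these libraries where that matters. FVE was at 15.1 and 15.5 CPM in fve, against 65.8 and 67.2 CPM in Col-0. SUVH9 was at 1.13 and 0.942 CPM in suvh2/9, against 40.7 and 42.8 CPM in Col-0, and SUVH2 was at 7.27 and 7.34 CPM, against 9.49 and 9.42 CPM. The labels and the reference tables do not pair the names PDP1, PDP2, PDP3 and RRM1 with gene identifiers, so those mutations were not checked. As markers of the tissue, 3 photosynthesis genes summed to 24017 to 31318 CPM in each library. Summed levels of the 3 seed storage markers were 10.6 to 16.9 CPM in pdp1/2/3;rrm1, 11.1 to 22.9 CPM in rrm1 and at most 0.308 CPM in the pdp1/2/3 and Col-0 libraries of that table, and those of the 3 floral organ markers 5.47 to 5.50 CPM in pdp1/2/3;rrm1 and 4.82 to 5.75 CPM in rrm1, against 1.01 to 1.18 CPM in Col-0. The seed storage sum was nearly all CRA1: in that table AT2S3 was at 0 in every library, and AT2S1 was above 0 in 1 library, at 0.0514 CPM. Most of the floral sum was PI, at 5.07 and 4.74 CPM in pdp1/2/3;rrm1 and 5.15 and 3.53 CPM in rrm1, against 0.667 and 0.583 CPM in Col-0, while AG was at 0.108 and 0.208 CPM in pdp1/2/3;rrm1 and 0.146 and 0.514 CPM in rrm1, against 0.205 and 0.265 CPM in Col-0. Of these 6 markers CRA1 and PI passed the filter, and both were called higher in both mutants. They passed it only through these mutants and were below 1 CPM in the Col-0 and pdp1/2/3 libraries of that table. The calls are therefore not independent of the filter. Of 6 root markers, which summed to 73.5 to 83.9 CPM in that table, EXP7 was called higher in rrm1 (log2 difference 0.67, limma's adjusted p 0.0136). The call on EXP7 was lost without rrm1 replicate 1, alone or together with pdp1/2/3;rrm1 replicate 1. It was also lost without Col-0 replicate 4 and without the filter. The part of these markers in the values below was not tested.

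All 4 genes were well expressed and kept a fixed order. Divided by the length of all annotated exons, HULK2 was highest, followed by HULK3, HUA2 and HULK1, in 14 of 14 libraries. In the first table HULK2 lay between 15.3 and 19.0 CPM per kb, HULK3 between 12.3 and 13.4, HUA2 between 8.10 and 9.87, and HULK1 between 3.26 and 4.15 CPM per kb. The second table gave ranges of 15.7 to 18.5 CPM per kb for HULK2, 10.5 to 12.8 for HULK3, 8.17 to 9.84 for HUA2, and 3.48 to 4.55 CPM per kb for HULK1. Neighbours in this order therefore did not overlap in either table. The place of HUA2 and HULK3 depended on the length used: with the coding length alone the order held in 11 of 14 libraries, and in 3 libraries of the second table HUA2 was above HULK3. That choice of length was added after seeing the data.

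As a share of the 4 genes' summed level per kb, HULK2 made up 38.8% to 44.0% of a library's transcripts, HULK3 25% to 31.6%, HUA2 19.8% to 23.0% and HULK1 8.27% to 10.9%. HULK2 stood at a median of 4.63 times HULK1 (3.62 to 4.95 over 14 libraries). The largest and the smallest share thus belonged to genes of different sequence pairs. Relative to all genes tested and on the CPM scale, HULK2 lay above 89.1% of genes in the first table and 88.8% in the second, and HULK1 above 54.9% and 57.6%.

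**Figure D2:**
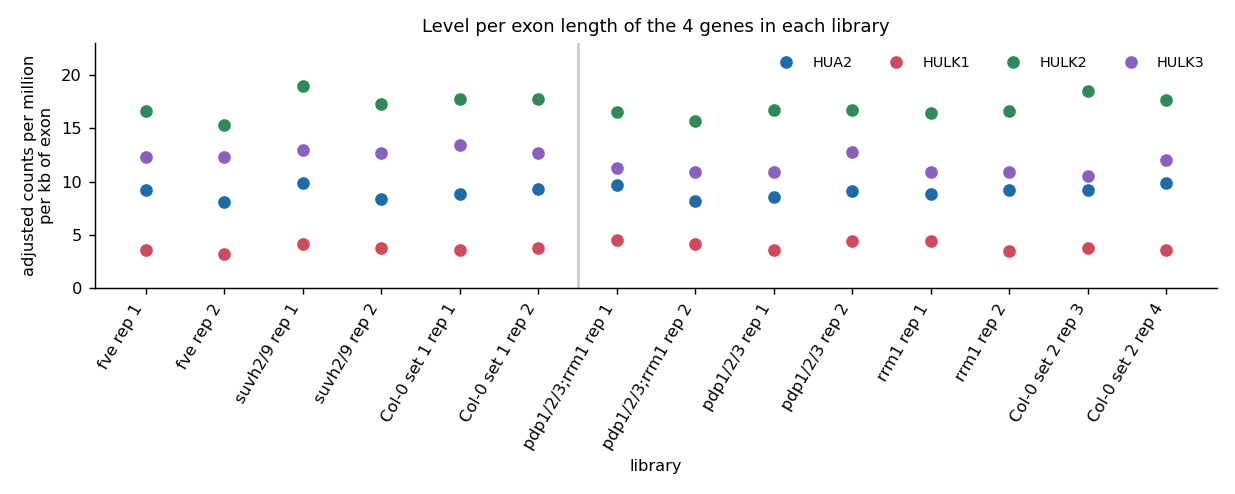
Level per exon length (adjusted counts per 1000000 per kb of exon) of HUA2, HULK1, HULK2 and HULK3 in each of the 14 libraries, with the mutants left of the Col-0 of their table; the vertical line separates the tables. In every library HULK2 was highest and HULK1 lowest, with HULK3 above HUA2 in between.

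The main comparison set each mutant against the Col-0 of its table. It asked whether transcripts of the HUA2 family changed where FVE, SUVH2 and SUVH9, the pdp genes or rrm1 were mutated. None of the 4 genes was called in any of the 5 mutants by limma on log2 of CPM plus 1 (Benjamini-Hochberg adjusted p below 0.05 over all genes tested, two-sided), and 2 of the 20 values had an unadjusted p below 0.05. Over all genes tested, the share at an unadjusted p below 0.05 was 14.01% in fve, 6.64% in suvh2/9, 31.2% in pdp1/2/3;rrm1, 31.1% in pdp1/2/3 and 18.9% in rrm1. The 20 differences ran from -0.16 to 0.23 on the log2 scale. Over the 20 values the 95% confidence intervals reached at the widest from 0.811 to 1.41 times Col-0, and 18 of them contained no difference. The intervals do not show that the levels were equal. Data were also simulated with the same dispersion for every gene, the median of the higher-count genes of each table. In them limma recovered 82% of 50 genes changed 1.25-fold in fve and 60% in rrm1. It recovered 100% and 98% of those changed 1.5-fold. Spread that differs from gene to gene was not simulated, so these shares do not give the sensitivity for the 4 genes. In the same simulated data, 2.55% of the genes called in fve and 6.28% of those called in rrm1 were unchanged ones.

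In fve 0 of 4 genes were called (limma, 1 at an unadjusted p below 0.05), where 1.89% of 19090 genes were. Both fve libraries lay below both Col-0 libraries for 3 of 4 genes, HULK1, HULK2 and HULK3, as for 24.6% of all genes. The median difference of the 4 genes was -0.10, beside -0.01 over all genes. In suvh2/9 0 of 4 were called (0 at an unadjusted p below 0.05), where 0.571% of all genes were, and HULK1 alone lay above Col-0 without overlap, as did 16.4% of genes.

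In pdp1/2/3;rrm1 0 of 4 genes were called (limma, 1 at an unadjusted p below 0.05), where 17.8% of the 19241 genes tested in the second table were called. Libraries did not overlap for HULK1, which lay above Col-0 as 30.9% of all genes did, and for HULK2, which lay below it as 30.0% did. In pdp1/2/3 0 of 4 were called (limma, 0 at an unadjusted p below 0.05), against 18.3% of all genes. In rrm1 0 of 4 were called (limma, 0 at an unadjusted p below 0.05), against 4.03%. HUA2 and HULK2 lay below Col-0 without overlap in both, where 30.2% of all genes did so in pdp1/2/3 and 25.3% in rrm1. The 3 mutants share their Col-0 libraries, so these are not separate observations. The median absolute difference of the 4 genes was 0.13 in pdp1/2/3;rrm1, 0.11 in pdp1/2/3 and 0.08 in rrm1, beside 0.14, 0.14 and 0.11 over all genes.

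**Figure D3:**
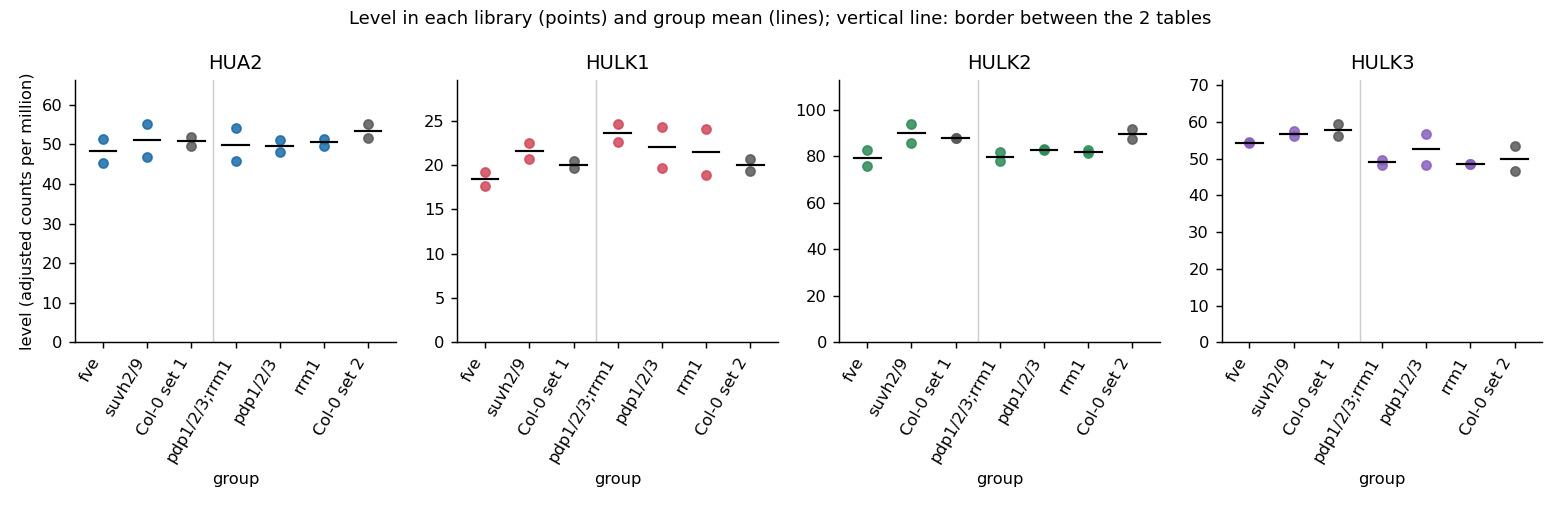
Level of each gene (adjusted counts per 1000000, axis from 0) in every library, with points for libraries and lines for means of 2 libraries; mutants are coloured, Col-0 is grey, and the vertical line separates the tables. Means of mutants stayed between 0.891 and 1.18 times the Col-0 mean of their table.

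HUA2 itself had the narrowest range of group means of the 4 in both tables. In the first table it had the largest spread within groups of the 4 (residual SD 0.124, log2). It was at 51.4 and 45.4 CPM in fve and at 55.3 and 46.7 CPM in suvh2/9, against 49.7 and 52.0 CPM in Col-0. In fve 1 library lay between the Col-0 libraries and 1 below them, the suvh2/9 libraries lay on either side of both, and the groups overlapped. The log2 difference was -0.07 ± 0.09 (SE) in fve and 0.00 ± 0.09 in suvh2/9, with limma's adjusted p at 0.779 and 1. In the second table HUA2 was at 54.1 and 45.7 CPM in pdp1/2/3;rrm1, at 48.1 and 51.2 CPM in pdp1/2/3 and at 49.7 and 51.5 CPM in rrm1, against 51.6 and 55.1 CPM in Col-0. The libraries of pdp1/2/3 and rrm1 were just below those of Col-0, by gaps smaller than the distance between the Col-0 libraries, and of those of the quadruple mutant 1 lay between the Col-0 libraries and 1 below them. The log2 differences were -0.10, -0.10 and -0.07 (SE 0.08 each), with limma's adjusted p at 0.472, 0.463 and 0.686. Over the 5 mutants the intervals for HUA2 spanned 0.821 to 1.14 times Col-0.

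HULK1, the partner of HUA2 by sequence, had the lowest level and the widest relative spread. It was at 19.2 and 17.7 CPM in fve and 22.5 and 20.7 CPM in suvh2/9, against 19.7 and 20.4 CPM in Col-0. Both fve libraries were the lowest of the table and both suvh2/9 libraries the highest. Over all genes, 24.6% lay below Col-0 without overlap in fve and 16.4% above it in suvh2/9. The differences from Col-0 were -0.11 ± 0.08 (SE, log2) in fve and 0.10 ± 0.08 in suvh2/9, with limma's adjusted p at 0.605 and 0.963. In the second table HULK1 was at 24.7 and 22.6 CPM in pdp1/2/3;rrm1, at 19.7 and 24.3 CPM in pdp1/2/3 and at 24.0 and 18.9 CPM in rrm1, against 20.6 and 19.3 CPM in Col-0. It averaged 23.6 ± 1.45 CPM in the quadruple mutant and 19.95 ± 0.952 CPM in Col-0 (SD, n = 2 each), a log2 difference of 0.23 ± 0.12 (SE) with an interval of -0.03 to 0.50, and limma's adjusted p was 0.218. In pdp1/2/3 and rrm1 the replicates differed 1.23-fold and 1.27-fold and overlapped Col-0. The rrm1 difference rested on replicate 1: it was 0.09 with both libraries and -0.08 without the replicate 1 libraries of rrm1 and of the quadruple mutant, and it was called in neither case (limma's adjusted p 0.744 with both).

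HULK2, the most abundant member, had the lowest p of the 20 values. It was at 82.5 and 75.9 CPM in fve and 94.0 and 85.7 CPM in suvh2/9, against 87.8 and 87.9 CPM in Col-0. The fve libraries were below both Col-0 libraries and the suvh2/9 libraries around them. The difference was -0.15 ± 0.06 (SE, log2) in fve, with an interval of 0.818 to 0.995 times Col-0, an unadjusted p of 0.0408 and limma's adjusted p at 0.327. In suvh2/9 it was 0.03 ± 0.06, and limma's adjusted p was 0.999. The second table had HULK2 at 81.7 and 77.8 CPM in pdp1/2/3;rrm1, at 82.7 and 82.9 CPM in pdp1/2/3 and at 81.2 and 82.5 CPM in rrm1, against 91.7 and 87.3 CPM in Col-0. The 6 mutant libraries were below both Col-0 libraries, which these mutants share, so these are not separate observations. Taken mutant by mutant, 30.0%, 30.2% and 25.3% of all genes lay below Col-0 without overlap. In the quadruple mutant HULK2 averaged 79.7 ± 2.76 CPM, against 89.5 ± 3.11 CPM in Col-0 (SD, n = 2 each), a log2 difference of -0.16 ± 0.06 (SE) with an interval of 0.811 to 0.981 times Col-0. Its unadjusted p was 0.0227 and limma's adjusted p 0.0946, and 44.7% of all genes differed by more in that comparison. The differences in pdp1/2/3 and rrm1 were -0.11 and -0.13 (SE 0.06 each), with limma's adjusted p at 0.262 and 0.303. The labels do not say whether these Col-0 libraries, numbered 3 and 4, were prepared together with the mutants.

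HULK3, the partner of HULK2 by sequence, overlapped Col-0 in 4 of the 5 mutants. It was at 54.3 and 54.5 CPM in fve and 57.5 and 56.1 CPM in suvh2/9, against 59.5 and 56.1 CPM in Col-0. Both fve libraries were below Col-0, by a log2 difference of -0.09 ± 0.06 (SE), and limma's adjusted p was 0.583. The difference in suvh2/9 was -0.02 ± 0.06, with limma's adjusted p at 0.999. Among the second table's libraries HULK3 was at 49.8 and 48.4 CPM in pdp1/2/3;rrm1, at 48.4 and 56.6 CPM in pdp1/2/3 and at 48.41 and 48.45 CPM in rrm1, against 46.5 and 53.3 CPM in Col-0. The libraries of each of these mutants overlapped those of Col-0. The log2 differences were -0.02, 0.07 and -0.04 (SE 0.09 each), with limma's adjusted p at 0.900, 0.642 and 0.856.

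**Figure D4:**
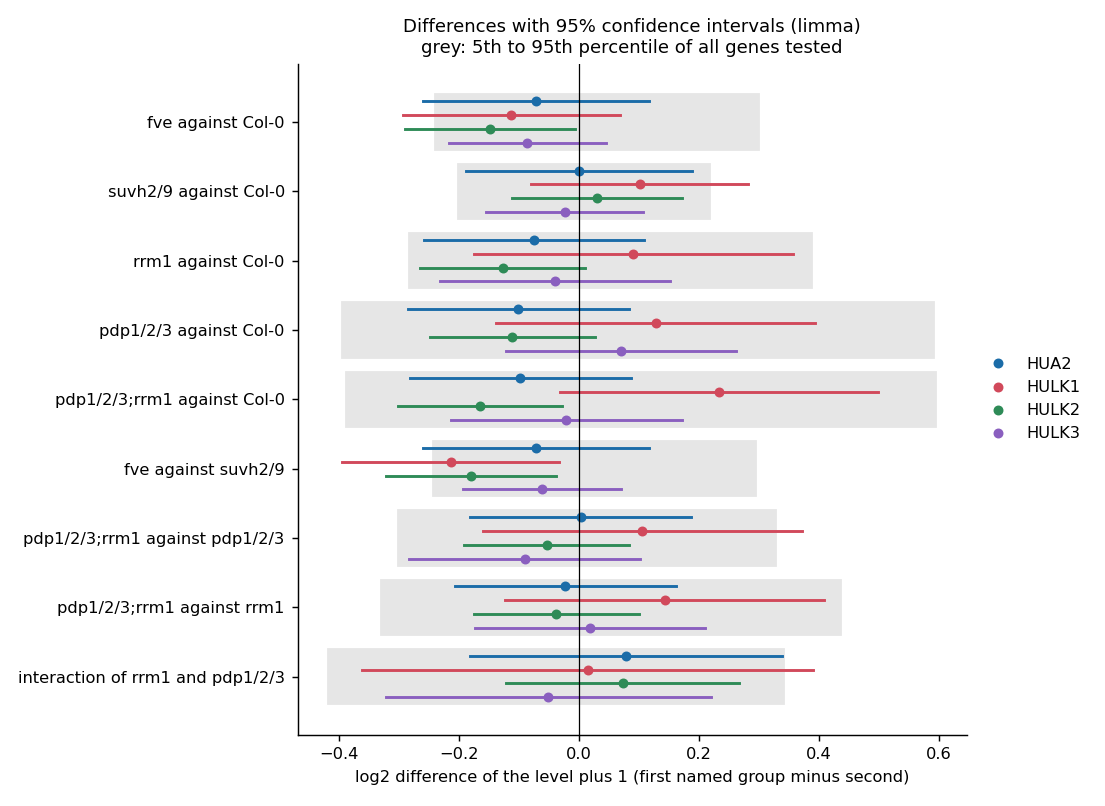
Differences in log2 of CPM plus 1 (points) with 95% confidence intervals from limma (lines) for HUA2, HULK1, HULK2 and HULK3 in 9 comparisons, the interaction being the effect of rrm1 in pdp1/2/3 minus its effect in Col-0. Grey boxes span the 5th to the 95th percentile of all genes tested; the 36 points lie between -0.21 and 0.23, and 32 of the intervals contain 0.

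Between mutants, too, none of the 4 genes was called. In fve against suvh2/9, where limma called 2.06% of all genes, 0 of 4 were called and 2 had an unadjusted p below 0.05. HULK1, HULK2 and HULK3 lay lower in both fve libraries than in both suvh2/9 libraries, as did 22.5% of all genes. The fve minus suvh2/9 difference was -0.21 ± 0.08 (SE, log2) for HULK1 and -0.18 ± 0.06 for HULK2, with limma's adjusted p at 0.265 and 0.229. In pdp1/2/3;rrm1 against pdp1/2/3, 0 of 4 were called by limma (0 at an unadjusted p below 0.05), where 2.96% of genes were. HULK2 was lower there without overlap, as 20.9% of genes were, by -0.05 ± 0.06. Against rrm1 the quadruple mutant also had 0 of 4 genes called by limma (0 at an unadjusted p below 0.05; background 7.96%), and the libraries of all 4 genes overlapped, where those of 52.6% of all genes did not. The interaction, which asks whether rrm1 acted differently in pdp1/2/3 than in Col-0, was called by limma for 0 of 4 genes (0 at an unadjusted p below 0.05) and for 0.301% of all genes, with values from -0.05 to 0.08 for the members.

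Over all libraries of a table the highest value of a member was 1.1 to 1.31 times its lowest, and the coefficient of variation ran from 3.49% for HULK3 in the first table to 11.1% for HULK1 in the second. Among the libraries of the second table, the range on the log2 scale was 0.26 for HUA2, 0.37 for HULK1, 0.23 for HULK2 and 0.28 for HULK3, beside a median of 0.40 over all genes. The range was smaller than that of HULK2 in 15.5% of genes and smaller than that of HULK1 in 43.5%. In the first table the ranges were 0.28, 0.33, 0.30 and 0.13, beside a median of 0.26, and HULK3 alone was below it.

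As a description over 14 libraries, centred on the mean of each table, HUA2 and HULK2 moved together at Pearson's r = 0.70 (0.79 within the first table and 0.58 within the second), a value above that of 98.8% of genes with HUA2. These points share their libraries and scaling. The other 5 pairs had r between 0.14 and 0.33, including the sequence pairs HUA2 and HULK1 (0.21) and HULK2 and HULK3 (0.20). HULK1 and HULK2 had r = 0.95 within the first table and -0.43 within the second.

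The genes most like each member over the 14 libraries, among 14450 genes of at least 5 CPM in both tables, were mostly of other families. For HUA2 they were AT3G59290 (r = 0.90), AT4G25770 and AT3G62900 (0.88 each). For HULK1 they were the small phosphatase gene SSP4b (0.88), the small GTPase gene RAB8 (0.86) and emb1220 (0.83). For HULK2 they were VPS11 (0.92), a vacuolar protein sorting gene, AT4G30100 (0.91) and AT3G03570 (0.90). For HULK3 they were ATHB-15 (0.92), a class III homeodomain gene of meristem and vascular development, AT3G01750 (0.85) and AT2G21180 (0.83). The 99th percentile of r was 0.71, 0.61, 0.76 and 0.64 for the 4 members in this order. AT2G21180 had r = -0.01 within the first table, so its likeness to HULK3 rests on the second.

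No member of the HUA2 family passed the test, but FLC, which HUA2 is known to promote, and the related genes MAF4 and MAF5 did. Of 6 tested MADS-box repressors (FLC, FLM and MAF2 to MAF5), FLC, MAF4 and MAF5 were called higher in fve, in pdp1/2/3 and in pdp1/2/3;rrm1, MAF4 and MAF5 in rrm1, and none in suvh2/9 (limma, 0 at an unadjusted p below 0.05). Over all genes limma called 1.89% in fve, 18.3% in pdp1/2/3, 17.8% in pdp1/2/3;rrm1, 4.03% in rrm1 and 0.571% in suvh2/9. FLC, MAF4 and MAF5 were below 1 CPM in every Col-0 library. In the first table they passed the filter only through fve. In the second they passed it only through mutants in which they were called higher, so these calls are not independent of the filter. FLC was at 11.1 and 11.4 CPM in fve, against 0.320 and 0.422 CPM in Col-0, a log2 difference of 3.16 ± 0.14 (SE) on the scale of CPM plus 1 with limma's adjusted p at 6.02e-07. It was at 8.81 and 8.86 CPM in pdp1/2/3;rrm1, at 2.99 and 5.23 CPM in pdp1/2/3 and at 0.550 and 0.410 CPM in rrm1, against 0.411 and 0.318 CPM in Col-0. Both fve libraries and all 4 libraries that carry pdp1/2/3 were far above Col-0, and the rrm1 libraries were next to it, with log2 differences of 2.85, 1.87 and 0.12 and limma's adjusted p at 3.49e-06, 4.32e-05 and 0.793. HUA2 in the same libraries differed by -0.07 in fve, -0.10 in pdp1/2/3;rrm1 and -0.10 in pdp1/2/3 on the same log2 scale.

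MAF5 had the largest difference of the list in the second table. It was at 18.2 and 19.0 CPM in pdp1/2/3;rrm1, at 7.81 and 7.82 CPM in pdp1/2/3 and at 9.20 and 7.07 CPM in rrm1, against 0.564 and 0.635 CPM in Col-0, with log2 differences of 3.61, 2.46 and 2.50. MAF4 differed by 2.39, 0.92 and 1.49 in the same mutants, and by 1.34 in fve, where MAF5 differed by 1.86. FLM and MAF2, the repressors best known to depend on HUA2 beside FLC, were not called in any mutant: FLM differed by -0.14 to 0.12 and MAF2 by -0.11 to 0.09. FLM was at 24.7 and 27.3 CPM in fve, against 25.4 and 23.1 CPM in Col-0. AG, the floral organ gene whose pre-mRNA HUA2 helps to process, stayed at or below 0.514 CPM in every library and did not pass the filter.

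**Figure D5:**
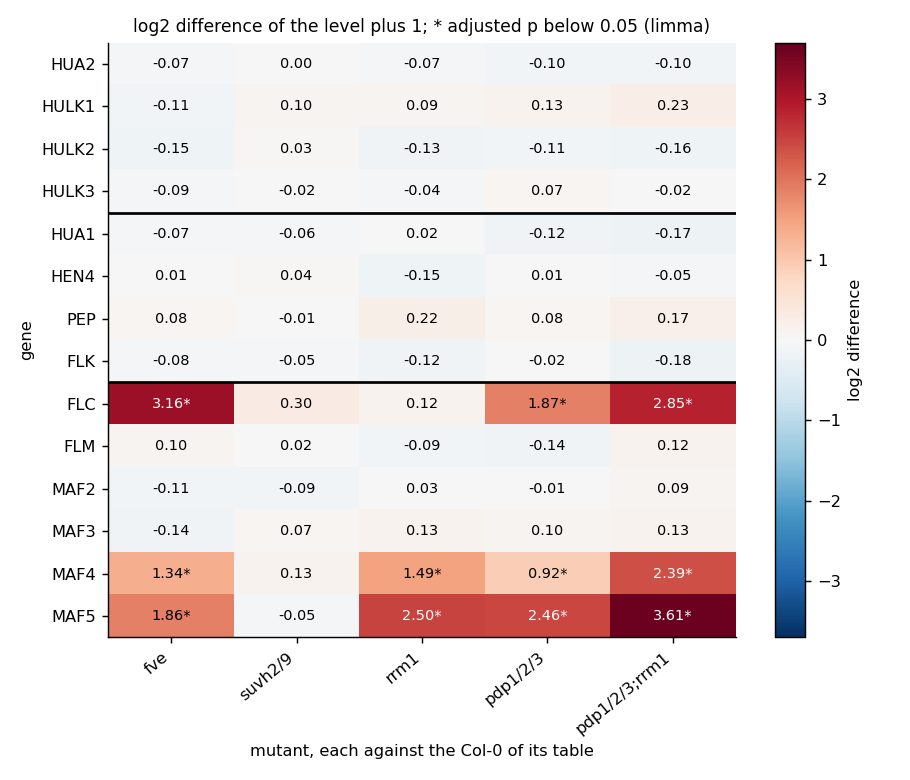
Differences in log2 of CPM plus 1, each mutant against the Col-0 of its table, for the HUA2 family (top block), 4 RNA-binding partners of HUA2 (middle block) and 6 MADS-box repressors (bottom block); asterisks mark limma's adjusted p below 0.05. FLC, MAF4 and MAF5 reach 3.61, while the top block stays between -0.16 and 0.23.

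None of the listed RNA-binding partners of HUA2 and HUA enhancer genes was called either. Of 6 tested genes, namely HUA1 (a CCCH zinc-finger RNA-binding protein), the KH-domain genes HEN4, PEP and FLK, the small-RNA methyltransferase gene HEN1 and the RNA helicase gene HEN2, limma called 0 in all 9 comparisons, with 5 of 54 values at an unadjusted p below 0.05. Over all genes, 0.301% to 18.3% were called in these comparisons, and 6.64% to 31.2% were at an unadjusted p below 0.05. Their differences from Col-0 ran from -0.18 to 0.22. HUA1 was at 28.5 and 25.3 CPM in pdp1/2/3;rrm1, against 29.3 and 31.6 CPM in Col-0. HUA1 thus lay below Col-0 without overlap, as did 30.0% of all genes, and limma's adjusted p was 0.172. FLK and PEP had a lower p in that comparison. FLK differed by -0.18 and PEP by 0.17 (log2), with limma's adjusted p at 0.0826 and 0.134.

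Among 10 other genes of PWWP-domain proteins, limma called 3 in pdp1/2/3;rrm1, 2 in pdp1/2/3 and 1 in fve. Over all genes the shares called were 17.8%, 18.3% and 1.89%. AT3G09670 was at 2.29 and 1.67 CPM in pdp1/2/3;rrm1, at 0.839 and 1.09 CPM in pdp1/2/3 and at 13.2 and 11.7 CPM in rrm1, against 14.6 and 13.4 CPM in Col-0. It was low in all 4 libraries that carry pdp1/2/3, by log2 differences of -2.34 and -2.94 (limma's adjusted p 2.01e-06 and 8.90e-07), and whether it is one of the mutated genes is not given in the labels. AT5G27650 was at 50.3 and 48.6 CPM in fve, against 32.9 and 30.8 CPM in Col-0, a difference of 0.62 ± 0.07 (SE, log2) with limma's adjusted p at 0.00124. In pdp1/2/3;rrm1 AT5G27650 was higher by 0.26 and AT5G40340 lower by a log2 difference of -0.56, and in pdp1/2/3 AT1G51745 was higher by 0.42. The call on AT5G27650 in the quadruple mutant was lost without any 1 library of that mutant or of Col-0 and without the mean-variance trend, and that on AT1G51745 without pdp1/2/3 replicate 2 or Col-0 replicate 3. In rrm1 and suvh2/9 limma called 0 of the 10, with 2 and 0 at an unadjusted p below 0.05. Over all genes it called 4.03% and 0.571%.

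Of 7 autonomous pathway genes, which act to keep FLC low, limma called 1 against Col-0, FVE in fve, at -2.05. Over all genes it called 1.89% in fve and 0.571% to 18.3% in the other mutants. Of 6 floral integrator and meristem identity genes 2 passed the filter, and SOC1, which promotes flowering and is repressed by FLC, was lower in 4 of 5 mutants. SOC1 was at 14.1 and 19.8 CPM in fve, against 35.3 and 42.2 CPM in Col-0. It was at 25.9 and 23.4 CPM in pdp1/2/3;rrm1, at 38.1 and 33.0 CPM in pdp1/2/3 and at 42.5 and 46.4 CPM in rrm1, against 64.0 and 62.4 CPM in Col-0. The log2 differences were -1.16, -1.32, -0.82 and -0.50 in this order, and the call in rrm1 was lost without Col-0 replicate 3, Col-0 replicate 4 or rrm1 replicate 1, and that in fve without the filter on low values (limma's adjusted p 0.0679).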

How the data were processed

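Per the submitters' processing notes, HISAT2, featureCounts, edgeR and TAIR10 were used, with no versions or roles given. The authors deposited a normalised signal per gene and library that the sources used here do not define. Its values have the form of counts adjusted to a common library size and are not whole numbers, so count tests were not run. Each value was divided by the mean library total of its table and multiplied by 1000000 (CPM). A gene had to reach 1 CPM in 2 libraries of the table. The test was limma (version 3.58.1, under R 4.3.3), with eBayes moderating the spread along its trend with the mean, on log2(CPM + 1), in 1 fit per table over all its groups, without a replicate block. P-values were Benjamini-Hochberg adjusted over the 19090 or 19241 genes tested. Libraries of different tables were not tested against each other. All 32548 identifiers matched the RefSeq annotation of TAIR10.1. The fit was tested on simulated data. The 4 genes, the lists and the comparisons were chosen with earlier results of these data known. Genes named beside them were, per mutant, up to 3 called genes of a list, taken by p, the mutated genes, and for each of the 4 the 3 genes with the highest r. FLM, MAF2, HUA1, FLK and PEP were picked after their values were seen. Alternatives were other pseudocounts (0.1 and 0.5), no filter, other scalings, no trend, fits of only the groups compared, a replicate block, and leaving out libraries.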

Additional observations from a re-analysis of the deposited data

Results flagged for a closer look

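MAF5, a MADS-box repressor of flowering related to FLC, was the 1 gene of the lists described here for which the effect of rrm1 differed between backgrounds by a test of the difference itself, as it did for 58 (0.301%) of the 19241 genes tested. The effect of rrm1 was 1.15 on log2 of CPM plus 1 in pdp1/2/3 and 2.50 in Col-0, and the effect in pdp1/2/3 minus that in Col-0 was -1.35 ± 0.18 (SE, limma's adjusted p 0.018). MAF5 was at 18.2 and 19.0 CPM in pdp1/2/3;rrm1, 7.81 and 7.82 CPM in pdp1/2/3 and 9.20 and 7.07 CPM in rrm1, against 0.564 and 0.635 CPM in Col-0. Col-0 thus lay below the 1 CPM added before the log2. Over the alternatives the difference between the effects ran from -2.31 to -1.15. On the CPM scale the order was the other way: with rrm1 the mean rose from 7.81 to 18.6 in pdp1/2/3 and from 0.600 to 8.13 in Col-0. The call held in 11 of 15 alternatives, with adjusted p from 0.00394 to 0.174. It was lost without Col-0 replicate 3, without the replicate 1 libraries of rrm1 and the quadruple mutant together, without a filter and without the trend. For HUA2, HULK1, HULK2 and HULK3 the same difference was 0.08, 0.01, 0.07 and -0.05, and limma called 0 of the 4.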

How the results depend on the processing

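None of the 4 members was called in any of 292 values under other settings (lowest adjusted p 0.0754) or 264 values with 1 library left out (lowest 0.0890). The sign of uncalled differences changed in 9 and 29 of these. With each library's own total as the scale the log2 difference of HUA2 was -0.013 in suvh2/9 and -0.0022 between the quadruple mutant and pdp1/2/3 (-0.0044 by median of ratios), that of HULK3 between the quadruple mutant and rrm1 was -0.022, and the interaction of HULK1 was -0.024. Without rrm1 and pdp1/2/3;rrm1 replicate 1 together, HULK1 in rrm1 was at -0.076, HUA2 between the quadruple mutant and pdp1/2/3 at -0.12, HULK3 between the quadruple mutant and rrm1 at -0.0013 and the interaction of HUA2 at -0.066. Leaving out 1 library at a time moved HUA2 between -0.16 and 0.017 in fve, -0.12 and 0.12 in suvh2/9, -0.22 and 0.020 in pdp1/2/3;rrm1, -0.19 and 0.047 in fve against suvh2/9, -0.12 and 0.12 in pdp1/2/3;rrm1 against pdp1/2/3, -0.14 and 0.095 against rrm1, and -0.040 and 0.20 in the interaction. HULK1 moved between -0.017 and 0.27 in pdp1/2/3, -0.076 and 0.26 in rrm1, -0.039 and 0.25 in pdp1/2/3;rrm1 against pdp1/2/3, -0.024 and 0.31 against rrm1, and -0.15 and 0.18 in the interaction. HULK2 moved between -0.035 and 0.097 in suvh2/9. HULK3 moved between -0.067 and 0.019 in suvh2/9, -0.12 and 0.076 in pdp1/2/3;rrm1, -0.042 and 0.18 in pdp1/2/3, -0.14 and 0.057 in rrm1, -0.20 and 0.021 in pdp1/2/3;rrm1 against pdp1/2/3, -0.00078 and 0.038 against rrm1, and -0.16 and 0.061 in the interaction.

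The number of all genes called, which sets the background, moved more. Leaving out 1 library it ran from 100 to 666 in fve (361 with all), 51 to 156 in suvh2/9 (109), 1542 to 3832 in pdp1/2/3;rrm1 (3427), 1826 to 3571 in pdp1/2/3 (3513), 204 to 1234 in rrm1 (775), 98 to 452 in fve against suvh2/9 (394), 182 to 508 in pdp1/2/3;rrm1 against pdp1/2/3 (570), 434 to 1821 against rrm1 (1531), and 5 to 344 for the interaction (58). The lowest counts came without fve replicate 1, Col-0 replicates 2 or 3, or replicate 1 of rrm1 or the quadruple mutant. Without a filter the counts were 125 in fve, 59 in suvh2/9, 270 in rrm1, 183 in fve against suvh2/9, 173 and 843 for the quadruple mutant against the triple and the single mutant, and 2 for the interaction. Without the trend they were 213, 63, 419, 248, 213, 957 and 3 in the same order. Fits of only the groups compared called 659 in fve, 1746 in rrm1 and 369 in the quadruple mutant against pdp1/2/3. Without rrm1 and pdp1/2/3;rrm1 replicate 1 together 341 were called in rrm1, and 166 and 618 for the quadruple mutant against the triple and the single mutant. Scaling by own totals called 129 for the interaction and lowered the share of higher calls in the quadruple mutant against rrm1 to 56.2%, against 68.6%. Each scaling moved the median of all genes by under 0.1. The cause of these moves was not tested.

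Deviations of libraries with the same replicate number correlated at -0.10, -0.011 and -0.039 among the mutants of the second table. In the first table the values were 0.0055 for Col-0 and fve, 0.14 for Col-0 and suvh2/9, and 0.20 for fve and suvh2/9. Whether replicate numbers pair the libraries was not tested. With the replicate block 643 genes were called in fve, 178 in suvh2/9 and 698 in fve against suvh2/9, and 0 of the 4 members. Without it 361, 109 and 394 genes were called. Of 54 calls on genes of the lists, 38 held under every alternative in which the gene was tested, and 0 changed sign. This check was added after seeing the data. When 1 fve library was left out, FLC, MAF4 and MAF5 no longer passed the filter and were not tested. Their calls in fve, against Col-0 and against suvh2/9, were thus checked in 12 alternatives each, where FVE had 14. With 2 libraries a group, limma recovered 82% (fve) and 60% (rrm1) of 1.25-fold changes simulated with the same dispersion for every gene. These shares do not give the sensitivity for the 4 members.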
